A study of Sus scrofa with 12 samples.

Results

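The stage dependence of an inhibitor effect was measured gene by gene in porcine muscle satellite cells, by asking whether the difference between inhibitor-treated and control cells was the same in proliferation and in differentiation. It was computed as a difference of differences on log2(FPKM + 1), where FPKM is a read count scaled by gene length and library depth. The inhibitor effect at 0h, inhibitor minus control, was subtracted from the inhibitor effect at 60h, and the result is called the interaction. A gene was measured when 3 or more of the 12 RNA-seq libraries reached an FPKM of 1, which kept 11636 of the 31908 genes in the deposited table. Of these, 409 genes had an effect that reversed between the stages or was confined, by limits on its size, to one of them.

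Satellite cells are the resident stem cells of skeletal muscle. Control libraries carry the label WT (NC in the deposited table) and the others the label CBP, each at 0h, labelled as cell proliferation, and at 60h, labelled as cell differentiation, with 3 libraries per group. The label CBP was read as cells given SGC-CBP30, which the protocol gives at 5 uM/ml, a unit kept as labelled, over 48 h of proliferation or 60h of differentiation. The same treatment text stands on the control libraries, and WT and CBP stand under a genotype tag, so a compound and a genetic change cannot be told apart from the labels. What the control cells received, and whether the cells of 60h had met the compound before differentiation, is not stated. Stage and length of treatment go together in these libraries. A difference between 0h and 60h therefore cannot be assigned to the stage rather than to the treatment schedule. The labels name 1 cell line, C3H, for all 12 libraries, although the organism is given as pig. That name is kept as labelled, and how it relates to porcine satellite cells is not stated. The labels do not say whether replicates came from separate cultures or animals. The p-values below therefore measure the spread between libraries, which may be technical.

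CBP and p300, encoded by CREBBP and EP300, are lysine acetyltransferases that act as coactivators at enhancers, and SGC-CBP30 occupies the bromodomain with which they bind acetylated lysines. In muscle, activated satellite cells express PAX7 and MYF5, and MYOD1 and MYOG then switch on the genes of fusion, the sarcomere and the neuromuscular junction while cells leave the cell cycle. Notch signalling, the cell cycle inhibitor CDKN1C and myostatin are known as brakes on the growth or differentiation of this lineage.

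The libraries held 16095335 to 19155240 reads, recovered from the steps of the FPKM values. Satellite cell and myoblast markers were detected in every group, with summed levels of 1748 to 1772 FPKM in control and 739.8 to 788.2 in inhibitor libraries at 0h, and 1545 to 1710 against 1100 to 1209 at 60h. Myotube markers summed to 1102 to 1177 against 119.9 to 122.5 FPKM at 0h and to 2327 to 2425 against 1582 to 1712 at 60h, so control cultures labelled as proliferating already held muscle transcripts. In such bulk samples, fewer cells of a type and less RNA per cell cannot be told apart.

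The inhibitor effect differed between 0h and 60h for a large share of genes. The interaction was called (limma, adjusted p under 0.05) for 2823 genes in the upward direction, 24.3% of those tested, and for 3104 in the downward direction, 26.7%. Below, a gene shifted up when its called interaction was above 0, so that the effect was higher at 60h, and shifted down when it was below 0. Counts of shifted genes in any list are to be read beside these 24.3% and 26.7%. They include members that passed the expression filter through 1 group alone, at most 7 in any list. Most of the interactions were small, and 620 genes passed with a log2 size of 1 or more, 266 up and 354 down. At single stages, 62.3% of genes were called at 0h, 5148 higher with the inhibitor (44.2%) and 2102 lower (18.1%), and 71.6% at 60h, 5200 higher (44.7%) and 3137 lower (27%). The share of all genes called in the same direction at both stages was not counted. It cannot exceed the smaller share of the single stages, 18.1% for lower and 44.2% for higher. The libraries of the arms did not overlap in 66.8% of genes at 0h, 74.3% at 60h and 53.9% at both stages, and 1.9% of genes had passed the expression filter through 1 group alone. After median-of-ratios scaling the counts of genes higher and lower became 2957 and 3131 at 0h and 3899 and 4155 at 60h. That scaling moved the median effect over all genes from 0.12 to 0.001 at 0h and from 0.105 to -0.004 at 60h. The median interaction over all genes was -0.008 and 0.001 after that scaling.

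Among the 5927 genes with a called interaction, 2199 had called effects of the same direction at both stages, 1647 of them larger at 60h and 552 larger at 0h. Opposite called effects were found in 997 genes, 366 lower and then higher and 631 higher and then lower. In 1776 genes the effect was called at 60h alone, in 898 at 0h alone, and in 57 at neither stage. A difference in calls does not bound an effect, so size limits were added. A reversed gene had opposite called effects of at least 0.5 on the log2 scale at each stage. A gene confined to one stage had a called effect of at least 1 there and the whole 95% interval of its effect at the other stage between -0.5 and 0.5. By these rules 52 genes reversed from lower to higher (0.447% of those tested), 44 from higher to lower (0.378%), 169 were lower at 60h only (1.45%), 95 higher at 60h only (0.816%), 46 lower at 0h only (0.395%) and 3 higher at 0h only (0.0258%). Rises and falls between stages within an arm are given below as ratios of mean FPKM and were not tested. Words such as gained and lost stand for these ratios between separate libraries. The labels do not say that the same cells were followed. Over all 11636 genes the effects at the 2 stages, which share no library, correlated with a Pearson's r of 0.537 and a Spearman's rho of 0.486, given as a description because genes are not independent and genes of a stage share libraries.

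**Figure D1:**
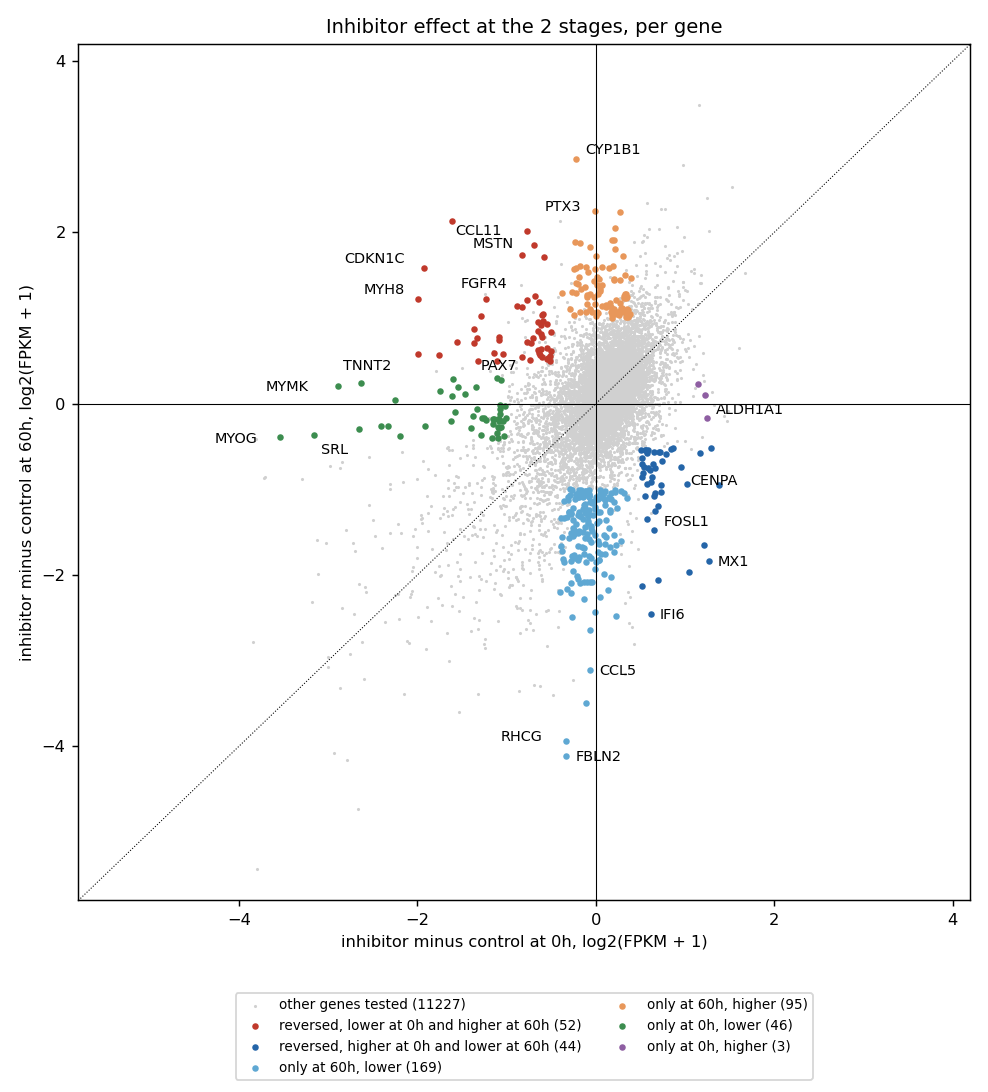
Inhibitor effect at 0h (x axis) and at 60h (y axis), each in log2(FPKM + 1) units, with 1 point per tested gene, coloured by the 6 sets of genes defined in the text. The 52 genes that reversed from lower to higher lie at the upper left, the 44 that reversed from higher to lower at the lower right, and the 169 genes lower at 60h only hang below the centre down to FBLN2 at -4.11.

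Genes that were lower with the inhibitor in proliferation and higher in differentiation included brakes on growth, Notch pathway genes and a myosin. Their median effects were -0.716 at 0h and 0.77 at 60h, values that the size limits set in part. In 36 of the 52 the inhibitor-arm mean rose 2-fold or more from 0h to 60h, and in 33 the control mean stayed within 2-fold.

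CDKN1C (ENSSSCG00000040461, chromosome 2, 2019391 to 2022092 in Sscrofa11.1), an inhibitor of cyclin-dependent kinases, had FPKM values of 32.4, 37.9 and 29.9 in control and 7.74, 7.96 and 8.35 in inhibitor libraries at 0h. At 60h they were 31.3, 27.7 and 27.5 in control and 93.3, 76.9 and 94.9 in inhibitor libraries. Control cells thus held similar levels at both stages, while the inhibitor libraries lay below all controls at 0h and above all of them at 60h. The gene was 4.17-fold lower and then 3.07-fold higher, with an interaction of 3.51 (SE 0.13, limma adjusted p = 1.64e-09). MSTN (chromosome 15, 94623526 to 94628440), which encodes myostatin, the secreted inhibitor of muscle growth, read 6.25, 5.82 and 5.79 FPKM in control against 3.51, 3.18 and 3.20 in inhibitor libraries at 0h, and 4.77, 5.34 and 5.09 against 22.3, 19.9 and 20.7 at 60h. Here too the controls barely differed between stages and the arms did not overlap at either. MSTN was 1.81-fold lower and then 4.14-fold higher (interaction 2.55, SE 0.0773, limma adjusted p = 3.23e-10).

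Of 24 genes of Notch signalling and satellite cell quiescence tested, 14 shifted up, 4 shifted down and 6 were not called, beside 24.3% of all genes shifted up. The list's median effect was -0.346 at 0h, where 14 were lower and 6 higher, and 0.311 at 60h, where 15 were higher and 5 lower. Over all genes 18.1% were lower and 44.2% higher at 0h, and 44.7% higher and 27% lower at 60h. After median-of-ratios scaling 16 of the 24 were lower and 2 higher at 0h, and 12 were higher and 5 lower at 60h. In all 8 members were called lower and then higher, beside 3.15% of all genes, and 5 of the 8 passed the size limits of a reversal. The receptor FGFR4, which marks myogenic cells, held 52.0, 52.7 and 54.8 FPKM in control and 21.9, 21.4 and 22.9 in inhibitor libraries at 0h, and 18.5, 19.7 and 19.3 against 47.5, 43.4 and 47.6 at 60h. The 2 arms therefore traded places, by 2.41-fold in each direction (interaction 2.46, SE 0.0591, limma adjusted p = 6.50e-11). The Notch ligand DLL1 was 3.26-fold lower and then 1.89-fold higher, and HES6, a HES-family factor expressed in myoblasts, was 1.85-fold lower and then 2.23-fold higher.

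PAX7 (chromosome 6, 77160827 to 77268626), the transcription factor that defines satellite cells, reversed as well. It read 14.4, 14.3 and 14.6 FPKM in control and 9.02, 8.56 and 9.04 in inhibitor libraries at 0h, and 7.70, 7.39 and 7.598 against 12.96, 10.99 and 12.9 at 60h. Control cells lost PAX7 1.91-fold between the stages, and inhibitor cells gained it 1.38-fold. The interaction was 1.27 (SE 0.0749, limma adjusted p = 6.94e-08). MYF5, its partner in undifferentiated myoblasts, showed the same order at a smaller size, with effects of -0.24 and 0.22 and an interaction of 0.46 (limma adjusted p = 6.58e-05). MYOD1 was lower at both stages, 3.36-fold at 0h and 1.60-fold at 60h. Of 26 myogenic regulators tested, 22 shifted up, 2 shifted down and 2 were not called, beside 24.3% of all genes shifted up and 26.7% down. TRIM72, a membrane repair protein of muscle, and ID4, an inhibitor of basic helix-loop-helix factors, had interactions of 1.33 and 1.94. TRIM72 was lower at both stages, 8.78-fold and then 2.97-fold, whereas ID4 reversed from 1.89-fold lower to 2.71-fold higher.

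The perinatal myosin heavy chain MYH8 read 13.9, 15.3 and 14.6 FPKM in control and 2.69, 3.26 and 2.81 in inhibitor libraries at 0h, and 51.0, 50.4 and 48.2 against 119, 109 and 126 at 60h. All inhibitor libraries lay below the controls at 0h and above them at 60h, and the inhibitor arm gained MYH8 40.4-fold between the stages while controls gained it 3.41-fold. The interaction was 3.22 (SE 0.0877, limma adjusted p = 1.49e-10). Myosin heavy chain genes are near copies of each other and some of their reads may be shared. FNDC5, the precursor of irisin, was 6.37-fold lower and then 1.55-fold higher. The chemokine CCL11 had only 109 and 30 reads over the control and inhibitor libraries of 0h, a 3.39-fold lower level, and 203 and 1072 reads at 60h, a 5.12-fold higher level. MIR1-2, the gene of a muscle microRNA, rested on 14, 0, 4 and 29 reads in the 4 groups (control and inhibitor at 0h, then at 60h), too few for a fold, with FPKM values of 0 in all inhibitor libraries of 0h and in 2 control libraries of 60h. Because the strand setting of the counting is not given in the sources used here, reads of a host or antisense transcript cannot be told apart from those of a microRNA gene.

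**Figure D2:**
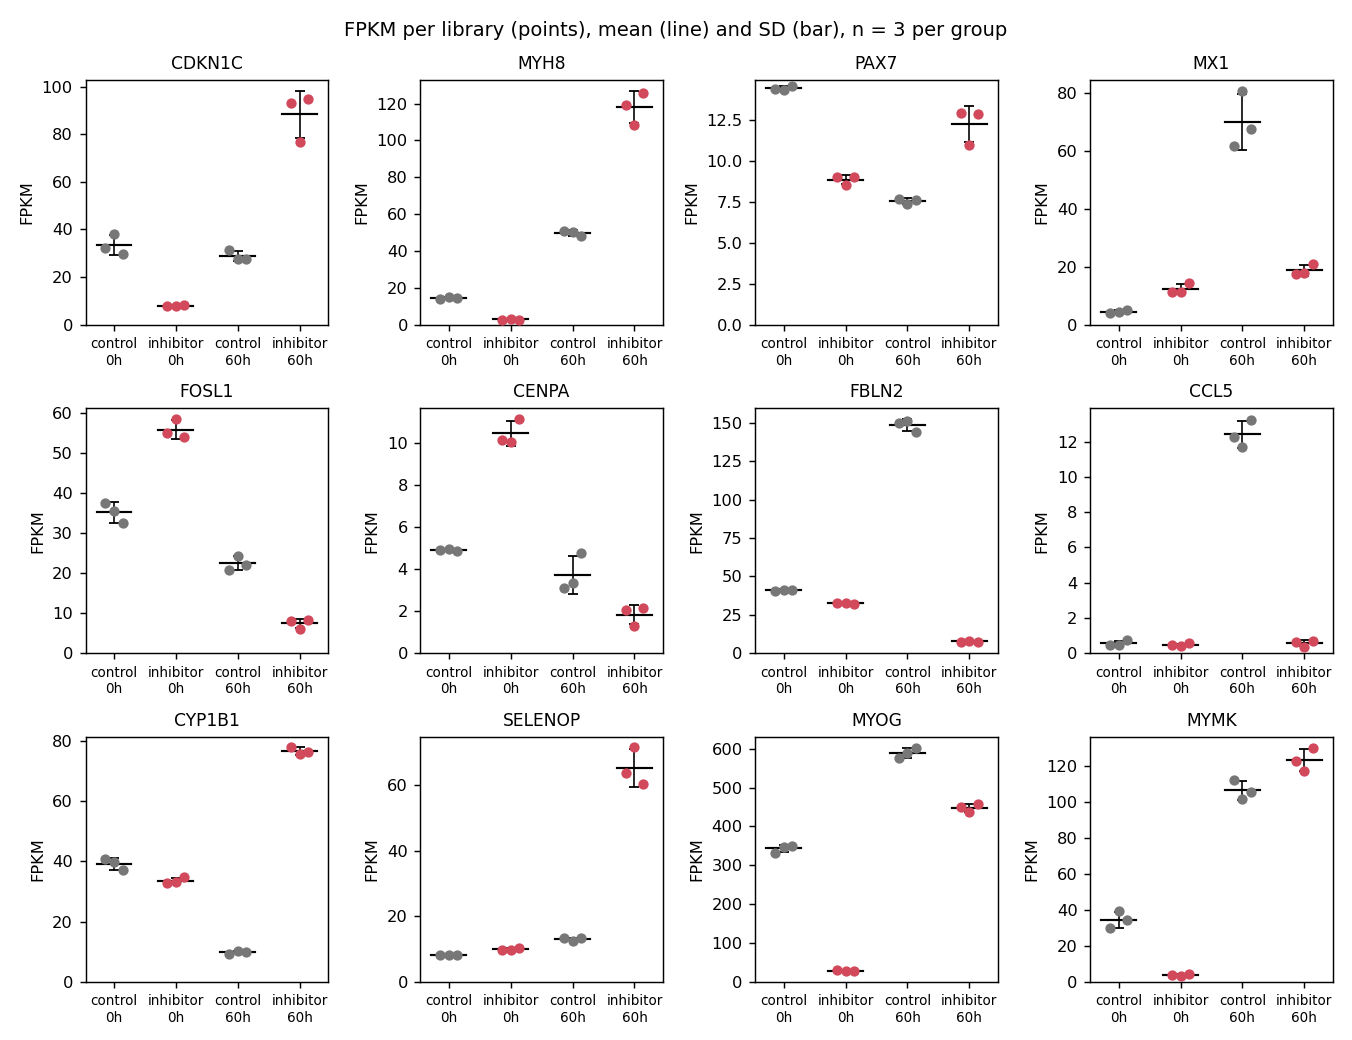
FPKM of 12 genes in each library (points), with the mean (line) and SD (bar) of 3 libraries per group, control in grey and inhibitor in red, on linear axes that start at 0. CDKN1C, MYH8 and PAX7 show the inhibitor arm below and then above control, MX1, FOSL1 and CENPA the opposite order, FBLN2, CCL5, CYP1B1 and SELENOP arms that part at 60h, and MYOG and MYMK arms that part at 0h.

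Interferon-stimulated genes supplied 8 of the 44 reversals in the other direction. Of the 50 tested, 46 shifted down, none shifted up and 4 were not called, against 26.7% of all genes shifted down. At 0h 27 of the 50 were higher with the inhibitor and 3 lower, beside 44.2% and 18.1% of all genes. The median effect was 0.245 against 0.12 over all genes. After median-of-ratios scaling 19 were higher and 4 lower at 0h, beside 2957 and 3131 of all 11636 genes. At 60h 45 were lower and 1 higher, beside 27% and 44.7% of all genes, with a median of -1.391. In all 22 were called higher and then lower, the 8 among them past the size limits, and 13 more were lower at 60h only. Over all genes 5.42% were called higher and then lower with a called interaction. The limits were sensitive to scaling, since 27 of the 44 reversals from higher to lower were also found after median-of-ratios scaling, which gave 30. Passing the expression filter depended on 1 group alone for 7 of the 50, so the counts are over the members that passed.

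MX1 (ENSSSCG00000012077, chromosome 13, 204843049 to 204868927), a GTPase that blocks viral replication, read 4.24, 4.34 and 5.01 FPKM in control and 11.3, 11.3 and 14.5 in inhibitor libraries at 0h. At 60h it read 61.9, 80.7 and 67.6 in control and 17.6, 17.99 and 21.0 in inhibitor libraries. The control level rose 15.5-fold between the stages and the inhibitor level 1.53-fold, so the higher arm at 0h became the lower arm at 60h with no overlap at either. The gene was 2.73-fold higher and then 3.71-fold lower (interaction -3.10, SE 0.159, limma adjusted p = 2.28e-08). IFI6, a mitochondrial antiviral protein, read 2.53, 1.80 and 1.68 against 3.44, 3.14 and 4.17 FPKM at 0h, and 95.3, 104 and 91.8 against 13.4, 22.3 and 16.0 at 60h. Its levels at 0h were low in both arms, and the interaction of -3.07 (SE 0.221, limma adjusted p = 3.82e-07) came mostly from 60h, where it was 5.64-fold lower. OAS2, a sensor of double-stranded RNA, was 1.74-fold higher and then 4.56-fold lower, and IFI44 was 1.65-fold higher and then 5.79-fold lower. IFI44 lay near the limit at 0h (effect 0.51) and was not a reversal after median-of-ratios or quantile scaling, without control replicate 2 of 0h or without inhibitor replicate 3 of 0h.

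RSAD2 and ISG15 had larger or similar interactions, of -3.48 and -2.93, without a called effect at 0h (limma adjusted p = 0.182 and 0.0925). RSAD2 lay at 0.0566, 0 and 0.0759 FPKM in control and 0.0592, 0.118 and 0.876 in inhibitor libraries at 0h, which is near the limit of detection, and at 12.6, 13.5 and 13.2 against 0.740, 0.210 and 0.872 at 60h. The induction between stages was seen in control libraries, and inhibitor libraries stayed under 1 FPKM. ISG15 stood 6.22-fold lower at 60h. RSAD2 had passed the expression filter through the control libraries of 60h alone. MX2, next to MX1 on chromosome 13, had effects of 0.14 and -2.17 and was lower at 60h only, whereas IFI44L, next to IFI44 on chromosome 6, reversed from higher to lower like its neighbour (0.70 and -1.19). SAMHD1 had effects of 0.50 and 0.57 and DDX60 of -1.76 and -1.90, and neither interaction was called (limma adjusted p = 0.362 and 0.378). The last 4 genes were named after their values were seen. Of 12 immune cell markers 2 passed the filter, 1 shifted up and 1 down, the summed level of all 12 was 6.194 to 6.61 and 6.624 to 8.109 FPKM in control and inhibitor libraries at 0h and 4.17 to 5.15 and 4.075 to 4.414 at 60h, and MS4A1, CD3E and LYZ were at 0 in all libraries.

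**Figure D3:**
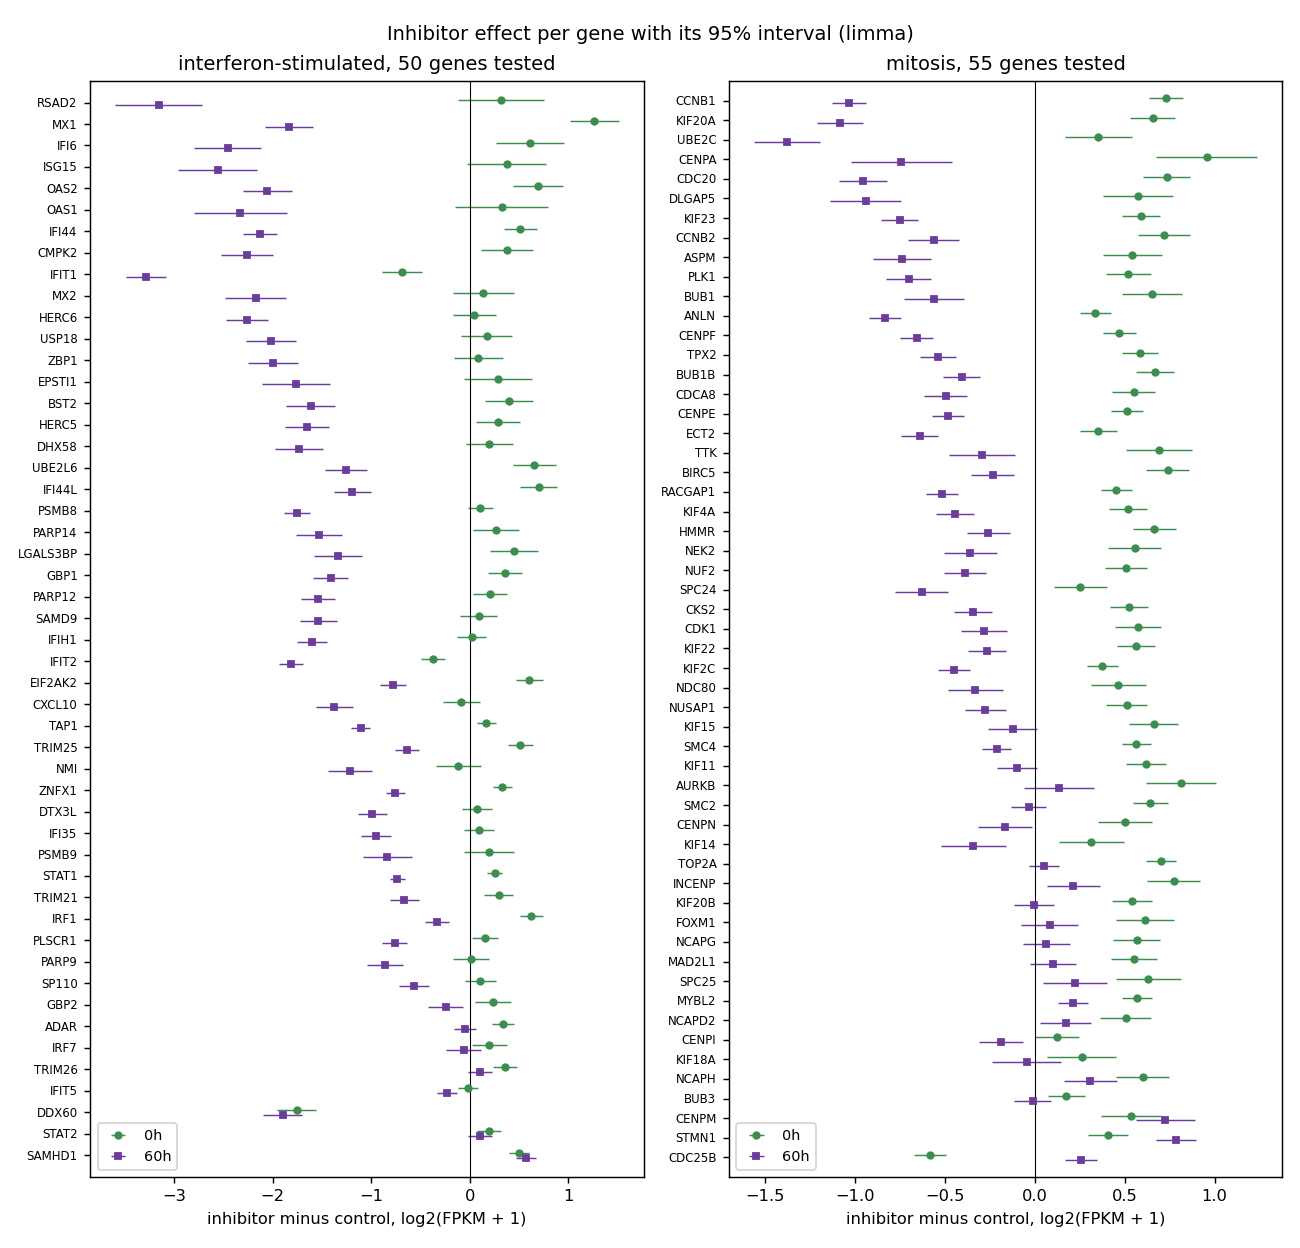
Inhibitor effect of each tested interferon-stimulated gene (left) and mitosis gene (right) at 0h (green circles) and 60h (purple squares) in log2(FPKM + 1) units, with 95% intervals from limma and genes ordered by the interaction. For 46 of 50 interferon genes and 51 of 55 mitosis genes the 60h effect lies below the 0h effect by a called amount.

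Of 55 mitosis genes tested, 51 shifted down, 2 shifted up and 2 were not called, beside 26.7% of all genes shifted down, with a median interaction of -0.856. At 0h 53 were higher with the inhibitor and 1 lower (median 0.556), and at 60h 36 were lower and 8 higher (median -0.292). Over all genes 44.2% were higher and 18.1% lower at 0h, and 27% lower and 44.7% higher at 60h. After median-of-ratios scaling the counts of mitosis genes were 49 and 1 at 0h and 40 lower and 4 higher at 60h. In all 35 were called higher and then lower, beside 5.42% of all genes, and 11 passed the size limits of a reversal.

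Cyclin B1, CCNB1 (chromosome 16, 47338239 to 47348385), which drives entry into mitosis, read 37.1, 36.7 and 36.4 FPKM in control and 59.1, 65.7 and 60.1 in inhibitor libraries at 0h, and 20.2, 21.5 and 21.8 against 9.49, 10.2 and 9.81 at 60h. The fall between stages was 1.73-fold in controls and 6.26-fold in the inhibitor arm, which left the inhibitor libraries above all controls at 0h and below all of them at 60h. CCNB1 was 1.68-fold higher and then 2.15-fold lower (interaction -1.76, SE 0.0622, limma adjusted p = 1.03e-09). The mitotic kinesin KIF20A was 1.61-fold higher and then 2.32-fold lower, and the centromeric histone CENPA 2.13-fold higher and then 2.05-fold lower. UBE2C, which loads ubiquitin for the anaphase-promoting complex, had effects of 0.35 and -1.37 and missed the size limit at 0h.

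Of 51 DNA replication genes 15 shifted down and 3 up, beside 26.7% and 24.3% of all genes, and 33 interactions were not called. Most effects were upward at both stages. At 0h 46 were higher and none lower (median 0.572), beside 44.2% of all genes higher and 18.1% lower. At 60h 43 were higher and 3 lower (median 0.434), beside 44.7% and 27%. Thus 42 of the 51 were called higher at both, beside at most 44.2% of all genes. The origin-binding protein ORC1 was 2.08-fold and 1.28-fold higher, and thymidine kinase TK1 1.72-fold and 1.21-fold higher. TYMS, the thymidylate synthase, was 1.36-fold higher and then 1.34-fold lower (interaction -0.84), and DBF4, an activator of replication origins, was 1.43-fold higher at 0h with an effect of -0.14 at 60h that was not called (limma adjusted p = 0.0678). Among CDK inhibitors and the RB family with their cyclins, 5 of 15 shifted up and 5 down. Cyclin D1, CCND1, was 1.33-fold higher and then 1.81-fold lower, the inhibitor CDKN2B was 1.95-fold lower at 60h with an effect of 0.08 at 0h (limma adjusted p = 0.513), and the RB relative RBL2 was 1.49-fold higher at 60h. CDKN1A, the p53-induced inhibitor, was lower at both stages, by 0.18 and 0.41 on the log2 scale.

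Genes induced early by growth signals parted within their own list. Of 27 immediate early genes tested, 18 shifted up, 4 shifted down and 5 were not called, beside 24.3% of all genes shifted up and 26.7% down. The median effect went from -0.158 to 0.208, or to 0.08 at 60h after median-of-ratios scaling. FOSL1, a FOS-family subunit of AP-1, read 37.5, 35.5 and 32.4 FPKM in control and 55.0, 58.5 and 53.9 in inhibitor libraries at 0h, and 20.9, 24.4 and 22.1 against 7.99, 6.09 and 8.32 at 60h. It was 1.59-fold higher and then 3.004-fold lower, with no overlap between arms (interaction -2.13, SE 0.132, limma adjusted p = 1.07e-07). The nuclear receptor NR4A1 went the other way, from 2.01-fold lower to 2.25-fold higher, and so did the Kruppel-like factor KLF2, from 1.68-fold lower to 2.20-fold higher. EGR3 had 4 and 3 reads in all at 0h and stood at 2.99, 3.36 and 3.97 FPKM in control and 12.01, 13.1 and 11.5 in inhibitor libraries at 60h. It was therefore all but undetected in proliferation, and its interaction of 1.59 was not called in a fit of the recovered reads (2.00, limma adjusted p = 0.0757). A microRNA gene, ssc-mir-221, was placed among genes that reversed from higher to lower on 10, 23, 31 and 6 reads in the 4 groups, in the order used for MIR1-2.

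The largest set, 169 genes, was lower with the inhibitor at 60h only, and its largest interactions included secreted matrix and signalling proteins. In 132 of these genes at least one arm had a mean FPKM of 1 or more at 0h, and in 37 both arms were below 1. Near 1 FPKM log2(FPKM + 1) still compresses differences, so a fold change at 0h could lie within the limit of 0.5. The effect at 0h was itself called in 76, always within the limit of 0.5. Controls rose 2-fold or more between the stages in 74 genes and the inhibitor arm fell 2-fold or more in 79. In 30 genes the filter was passed through 1 group alone.

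FBLN2 (ENSSSCG00000011609, chromosome 13, 70757255 to 70830430), which encodes the matrix protein fibulin-2 of elastic fibres and basement membranes, read 40.3, 41.0 and 41.5 FPKM in control and 32.4, 32.9 and 31.8 in inhibitor libraries at 0h. At 60h it read 150, 151 and 144 in control and 7.39, 8.26 and 7.36 in inhibitor libraries. Control cells gained the transcript 3.63-fold between stages and inhibitor cells lost it 4.22-fold, so a 1.26-fold difference became a 19.3-fold one (interaction -3.78, SE 0.0544, limma adjusted p = 8.92e-13). LTBP2, a relative of the latent TGF-beta binding proteins, read 207, 209 and 208 FPKM in control and 204, 190 and 205 in inhibitor libraries at 0h, and 111, 120 and 117 against 16.6, 18.5 and 18.2 at 60h. The arms lay within 1.04-fold of each other at 0h and 6.53-fold apart at 60h (interaction -2.58, SE 0.0599, limma adjusted p = 5.74e-11). LTBP1, which tethers latent TGF-beta, was 2.32-fold lower at 60h with an effect of -0.13 at 0h.

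Elastin itself was not confined to one stage. ELN read 51.2, 55.7 and 53.5 FPKM in control and 2.87, 3.10 and 2.80 in inhibitor libraries at 0h, and 115, 116 and 121 against 1.61, 1.94 and 1.65 at 60h. It was 18.3-fold lower and then 67.7-fold lower, and the interaction of -1.64 (SE 0.0712, limma adjusted p = 6.10e-09) measures an effect that grew. Of 19 elastic fibre genes 11 shifted down, 4 up and 4 were not called, with median effects of -0.165 and -0.72. Called lower at both stages were 11 of the 19, beside at most 18.1% of all genes. Collagens and other matrix genes did not share a direction, with 24 of 57 shifted up and 23 down. Among the 57, 33 were called lower at both stages, again beside at most 18.1% of all genes. The lysyl oxidase LOXL4 was 2.03-fold and then 18.7-fold lower, and fibromodulin, FMOD, a collagen-binding proteoglycan, was 1.45-fold and then 5.36-fold lower. COMP, a cartilage matrix protein, reached at most 0.5 FPKM in a library of 0h and was 10.6-fold lower at 60h. Of 14 fibroblast markers tested, 7 shifted up and 4 down, with median effects of -0.762 at 0h and -0.427 at 60h. The summed level of all 16 was 3020 to 3143 FPKM in control and 1728 to 1757 in inhibitor libraries at 0h, and 6511 to 6816 against 4871 to 5229 at 60h, and their part in the matrix results was not tested.

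The urokinase receptor PLAUR, which localizes proteolysis to the cell surface, was 2.60-fold lower at 60h with overlapping arms at 0h. Of 24 metalloproteinases and inhibitors, 14 shifted up, 7 shifted down and 3 were not called, beside 24.3% of all genes shifted up and 26.7% down. MMP2, which degrades type IV collagen, read 116, 121 and 122 FPKM in control and 124, 125 and 122 in inhibitor libraries at 0h, and 223, 228 and 221 against 541, 620 and 550 at 60h. Its arms overlapped in proliferation and stood 2.55-fold apart in differentiation (interaction 1.30, SE 0.0617, limma adjusted p = 1.33e-08), which put it among genes higher at 60h only. The membrane-bound MMP15 reversed from 1.56-fold lower to 1.73-fold higher.

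Several secreted ligands and their antagonists were lower at 60h only. The growth factor FGF2 read 11.8, 12.4 and 12.2 FPKM in control and 10.8, 10.8 and 10.9 in inhibitor libraries at 0h, and 20.1, 20.05 and 21.0 against 5.89, 5.73 and 5.41 at 60h. Controls gained FGF2 1.68-fold and inhibitor cells lost it 1.91-fold, and the arms stood 3.59-fold apart at 60h (interaction -1.53, SE 0.0517, limma adjusted p = 7.79e-10). FGF19 read 15.1, 17.4 and 15.9 against 19.9, 18.1 and 18.8 FPKM at 0h and 6.52, 4.22 and 4.12 against 0.0622, 0.0915 and 0 at 60h, the last 3 values from 5 reads in all. ETV4, a transcription factor downstream of FGF and ERK signals, was 2.29-fold lower at 60h. Yet the list of FGF receptors and ERK feedback genes had no common direction, with 9 of 22 shifted up and 6 down. BMP4 and the BMP antagonists CHRD and CHRDL1 were 2.34-fold, 3.26-fold and 3.37-fold lower at 60h, with effects of 0.15, 0.04 and -0.39 at 0h. Those of BMP4 and CHRDL1 at 0h were called (limma adjusted p = 0.0166 and 2.05e-06), within the limit on size. CHRDL1 left the set when rescaled to TPM and after median-of-ratios or quantile scaling. The full list of ID proteins and BMP feedback had 9 of 23 shifted up and 10 down. Among 33 growth factor ligands and binding proteins, 15 shifted up and 13 down. GDF15, a stress-induced cytokine, was 1.34-fold higher and then 6.97-fold lower (interaction -3.01, limma adjusted p = 1.49e-10), IGFBP6 was 4.04-fold lower at 60h with overlapping arms at 0h, and IGFBP2 was higher at both stages, 1.52-fold and 4.13-fold.

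The chemokines CCL5, CXCL8 and CCL2 were lower at 60h, while CCL11, described above, was higher. CCL5, which attracts T cells and is induced by interferon and NF-kB signals, read 0.467, 0.487 and 0.729 FPKM in control and 0.488, 0.431 and 0.555 in inhibitor libraries at 0h, and 12.2, 11.7 and 13.3 against 0.642, 0.368 and 0.677 at 60h. The inhibitor libraries of 60h held 0.368 to 0.677 FPKM, close to the libraries of 0h, and lay 22.1-fold below controls. CCL5 had passed the expression filter through the control libraries of 60h alone, where it was high, so its difference is given as a description. It left its set with a pseudocount of 0.1 and with limma-voom, and was not tested when a control library of 60h was left out. CXCL8 was 19.7-fold lower and CCL2 2.07-fold lower at 60h, with effects of -0.13 (limma adjusted p = 0.378) and 0.31 (limma adjusted p = 0.000396) at 0h. The 0h effect of CCL2 was thus called higher, within the limit on size. CXCL8 held 28 reads over the inhibitor libraries of 60h and stayed in its set under 15 of 20 alternatives. Of 30 inflammatory and NF-kB genes, 20 shifted down, 5 up and 5 were not called, beside 26.7% of all genes shifted down. The 30 include 3 that passed the filter through 1 group alone, CCL5 among them. The adhesion molecule VCAM1 shifted up, 2.39-fold and then 5.60-fold higher (interaction 1.49).

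Of 35 ATF4 targets and tRNA synthetases, which serve amino acid supply and use, 30 shifted down and 2 up, beside 26.7% and 24.3% of all genes, and the median effect went from -0.197 to -0.665. In total 24 were lower and 3 higher at 0h, and 31 were lower and 4 higher at 60h, beside 18.1% and 27% of all genes lower at those stages. The amino acid transporter SLC7A5 was 1.15-fold lower at 0h and 2.95-fold lower at 60h, and PSPH, the last enzyme of serine synthesis, was 2.35-fold lower at 60h with an effect of -0.06 at 0h (limma adjusted p = 0.243). Both met the rule for 60h only, SLC7A5 by the limit on size, since its effect of -0.20 at 0h was itself called (limma adjusted p = 0.000197). The cystine transporter SLC7A11, 1.67-fold and then 3.54-fold lower, and the hormone STC2, 1.83-fold and then 4.04-fold lower, were past that limit at 0h. Antioxidant genes had no common direction, 9 of 23 up and 12 down. The quinone reductase NQO1 was 1.28-fold higher and then 2.36-fold lower, the aldose reductase AKR1B1 was 1.91-fold lower and then 1.30-fold higher, and the glutathione peroxidase GPX3 was higher at both stages, 3.16-fold and 6.37-fold.

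Some of these genes were low at 0h. The ammonia transporter RHCG read 0.622, 0.670 and 0.665 FPKM in control and 0.231, 0.334 and 0.358 in inhibitor libraries at 0h, and 32.4, 29.5 and 28.9 against 0.953, 1.12 and 1.05 at 60h. It was lower in every inhibitor library at both stages, by 2.12-fold and 29.1-fold, and met the rule for 60h only on log2(FPKM + 1), which compresses values below 1. STRA6, the receptor that takes up retinol, read 0.205, 0.196 and 0.206 FPKM in control libraries of 0h, from 35 reads, and 0.0357, 0 and 0 in inhibitor libraries, from 2 reads. At 60h it read 3.24, 2.87 and 2.78 against 0.106, 0.208 and 0.189, a 17.7-fold difference. With the recovered reads the interaction of STRA6 was -0.40 and not called (limma adjusted p = 0.696), against -1.51 on the FPKM scale. SLN, a small inhibitor of the calcium pump, and CHRNE, the adult subunit of the acetylcholine receptor, reached at most 0.557 and 0.431 FPKM in a library of 0h and were 6.14-fold and 40.2-fold lower at 60h. STRA6, COMP and CHRNE had also passed the filter through the control libraries of 60h alone.

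Of 21 genes of retinoic acid and aryl hydrocarbon signalling, 11 shifted up and 7 down. The retinoic acid receptor RARG read 12.5, 12.3 and 12.9 FPKM in control and 14.7, 12.4 and 14.1 in inhibitor libraries at 0h, and 12.2, 12.3 and 12.8 against 3.34, 4.01 and 3.35 at 60h. Its control libraries covered similar values at both stages, and the inhibitor arm fell 3.85-fold between them (interaction -1.68, SE 0.0936, limma adjusted p = 4.67e-08). CRABP2, a carrier of retinoic acid, was 9.22-fold lower at 0h and 62.1-fold lower at 60h.

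CYP1B1 (ENSSSCG00000033844), a target of the aryl hydrocarbon receptor that oxidizes steroids and retinoids, had the largest interaction of the 95 genes higher at 60h only. It read 40.9, 39.8 and 37.1 FPKM in control and 32.8, 33.1 and 34.8 in inhibitor libraries at 0h, and 9.36, 10.1 and 9.83 against 78.1, 75.6 and 76.4 at 60h. Control cells lost it 4.02-fold, inhibitor cells gained it 2.28-fold, and a 1.17-fold lower level became a 7.86-fold higher one (interaction 3.07, SE 0.0566, limma adjusted p = 1.02e-11). SELENOP, a secreted carrier of selenium, read 8.04, 8.18 and 8.04 against 9.84, 9.84 and 10.3 FPKM at 0h and 13.2, 12.5 and 13.4 against 63.8, 71.7 and 60.3 at 60h, which is 1.24-fold and then 5.00-fold higher (interaction 1.96, limma adjusted p = 2.21e-09). PTX3, a secreted pattern recognition protein, had equal means of 1.78 FPKM in both arms at 0h and was 5.57-fold higher at 60h. The matrix protein TGFBI, the poly(A) polymerase TENT5C and the actin regulator CYRIA were 3.10-fold, 7.20-fold and 5.89-fold higher at 60h, and within 1.22-fold of control at 0h. Among the 95 genes, the inhibitor-arm mean rose 2-fold or more between stages in 61 and the control mean stayed within 2-fold in 61. Of these genes, 76 had a mean FPKM of 1 or more in an arm at 0h, the 0h effect was called in 50, and 12 passed the filter through 1 group alone.

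Muscle differentiation genes had the largest interactions in the set that was lower at 0h only. MYOG (ENSSSCG00000034654, chromosome 9, 113783233 to 113785312), the factor that drives terminal differentiation, read 332, 348 and 350 FPKM in control and 29.7, 27.9 and 28.01 in inhibitor libraries at 0h, and 576, 589 and 602 against 449, 438 and 457 at 60h. Inhibitor cells gained MYOG 15.7-fold between stages and controls 1.72-fold, so the arms closed from 12.03-fold to 1.32-fold apart without overlapping (interaction 3.15, SE 0.0449, limma adjusted p = 8.92e-13). The remaining difference at 60h was itself called (limma adjusted p = 3.09e-07), as in 32 of the 46 genes, so that "only" refers to the limit on size. MYMK, the membrane protein that fuses myoblasts, read 29.9, 39.2 and 34.3 FPKM in control and 3.79, 3.06 and 4.57 in inhibitor libraries at 0h, and 112, 102 and 106 against 122.99, 118 and 130 at 60h. The inhibitor arm was 9.05-fold lower in proliferation, and at 60h its effect of 0.21 was not called (95% interval -0.03 to 0.45, limma adjusted p = 0.102), although its libraries lay above the controls.

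Cardiac troponin TNNT2, expressed early in muscle differentiation, read 170, 181 and 185 FPKM in control and 25.7, 26.7 and 31.9 in inhibitor libraries at 0h, and 1267, 1218 and 1208 against 1470, 1382 and 1523 at 60h. It was 6.35-fold lower at 0h and 1.18-fold higher at 60h (interaction 2.87, SE 0.0943, limma adjusted p = 5.87e-10). The Z-disc actinin ACTN2 was 12.8-fold lower at 0h, with means of 27.5 and 28.4 FPKM and overlapping arms at 60h. Sarcalumenin, SRL, a calcium-binding protein of the sarcoplasmic reticulum, was 11.2-fold and then 1.29-fold lower. It stayed within the limit at 60h under 11 of 20 alternatives and left the set under the others, including the omission of any 1 control library of 60h. Over the 46 genes the inhibitor arm rose 2-fold or more between stages in 28, while the control mean stayed within 2-fold in 31.

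The sarcomere list as a whole showed a smaller deficit at 60h without losing it. Of 44 genes tested, 30 shifted up, 12 shifted down and 2 were not called, beside 24.3% of all genes shifted up and 26.7% down. The median effect went from -1.978 at 0h to -1.005 at 60h. In 34 genes the effect was called lower at both stages, beside at most 18.1% of all genes. Skeletal actin ACTA1 was 15.6-fold and then 1.33-fold lower (interaction 3.40, SE 0.0793, limma adjusted p = 5.74e-11), and embryonic myosin MYH3 14.2-fold and then 1.83-fold lower (interaction 2.84). CKM, the muscle creatine kinase, was 12.8-fold and then 1.58-fold lower, with an interaction of 0.52 (limma adjusted p = 0.00533). Its mean was 0.104 FPKM in the inhibitor arm at 0h, a level at which log2(FPKM + 1) understates a difference.

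Receptor and coupling genes followed in part. Of 16 acetylcholine receptor and junction genes, 9 shifted up and 3 down. CHRNA1, the receptor's alpha subunit, was 4.66-fold and then 1.30-fold lower, and the syntrophin SNTB1 2.82-fold and then 1.24-fold lower, and both were lower at 0h only. DOK7, an activator of the kinase MuSK, had effects of -0.53 and 0.35. Of 26 genes of excitation-contraction coupling, 13 shifted up, 5 down and 8 were not called. The calcium pump ATP2A1 was 5.59-fold lower and then 1.38-fold higher, while STAC3, an adaptor of the calcium channel, and the calcium store protein CASQ2 were lower at both stages, 7.998-fold and 3.49-fold for STAC3 and 3.72-fold and 1.81-fold for CASQ2. Fusion genes had 9 of 24 shifted up and 5 down. Cadherin 15, CDH15, which joins myoblasts, was 2.93-fold lower and then 1.35-fold higher, caveolin CAV3 7.93-fold and then 1.52-fold lower, and the tetraspanin CD9 1.32-fold higher and then 2.55-fold lower.

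Smooth muscle and contractile genes were lower at both stages in 16 of 21 cases, beside at most 18.1% of all genes. Their median effects were -0.702 and -0.721, and 10 shifted up and 7 down. The smooth muscle actin ACTA2 was 3.14-fold and then 1.65-fold lower. TAGLN, which binds actin, was 1.63-fold lower at 0h with overlapping arms at 60h (effect -0.01, limma adjusted p = 0.802), DES, the muscle intermediate filament, 3.71-fold and then 2.43-fold lower, and ACTG2, an enteric actin, 7.33-fold and then 9.82-fold lower. The summed level of 14 smooth muscle and pericyte markers was 3798 to 3945 against 1501 to 1553 FPKM at 0h and 4032 to 4053 against 2706 to 2902 at 60h.

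The set that was higher at 0h only held 3 genes. ALDH1A1, which makes retinoic acid from retinal, read 4.26, 4.44 and 4.05 FPKM in control and 10.9, 11.6 and 11.8 in inhibitor libraries at 0h, and 14.9, 16.2 and 15.7 against 12.97, 15.7 and 12.9 at 60h. The control level was 3.68-fold higher at 60h than at 0h. The inhibitor arm stood 2.69-fold above control at 0h and overlapped it at 60h (interaction -1.41, SE 0.0934, limma adjusted p = 1.89e-07). The translation factor EIF5A2 was 2.60-fold higher at 0h and 1.21-fold higher at 60h. CD70, a ligand of the TNF family outside the naming rule, had effects of 1.22 and 0.10 at mean levels of 0.531 and 2.57 FPKM at 0h.

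The genes of the targeted proteins were higher at both stages. CREBBP read 8.76, 8.09 and 7.53 FPKM in control and 10.2, 9.94 and 9.80 in inhibitor libraries at 0h, and 8.77, 8.62 and 8.35 against 13.9, 13.1 and 15.1 at 60h. The inhibitor libraries lay above all controls at each stage and further at 60h, 1.23-fold and then 1.63-fold (interaction 0.38, SE 0.079, limma adjusted p = 0.0017). EP300 was 1.24-fold and then 1.23-fold higher, and its interaction was -0.00 with a 95% interval of -0.15 to 0.14 (limma adjusted p = 0.96). Of 51 acetyltransferases, deacetylases and bromodomain proteins, 25 shifted up, 4 down and 22 were not called, beside 24.3% of all genes shifted up and 26.7% down. The median effect went from 0.207 to 0.385, or from 0.084 to 0.277 after median-of-ratios scaling. The coactivator NCOA1 had effects of -0.17 and 0.74, BRD3, of the BET family, -0.06 and 0.58, and CECR2, a chromatin remodelling subunit, -0.32 and 0.44. The deacetylase HDAC1 went the other way, 1.67-fold higher and then 1.13-fold lower (interaction -0.89, limma adjusted p = 8.07e-08). MYC had effects of -0.20 and -0.42 and an interaction of -0.21.

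**Figure D4:**
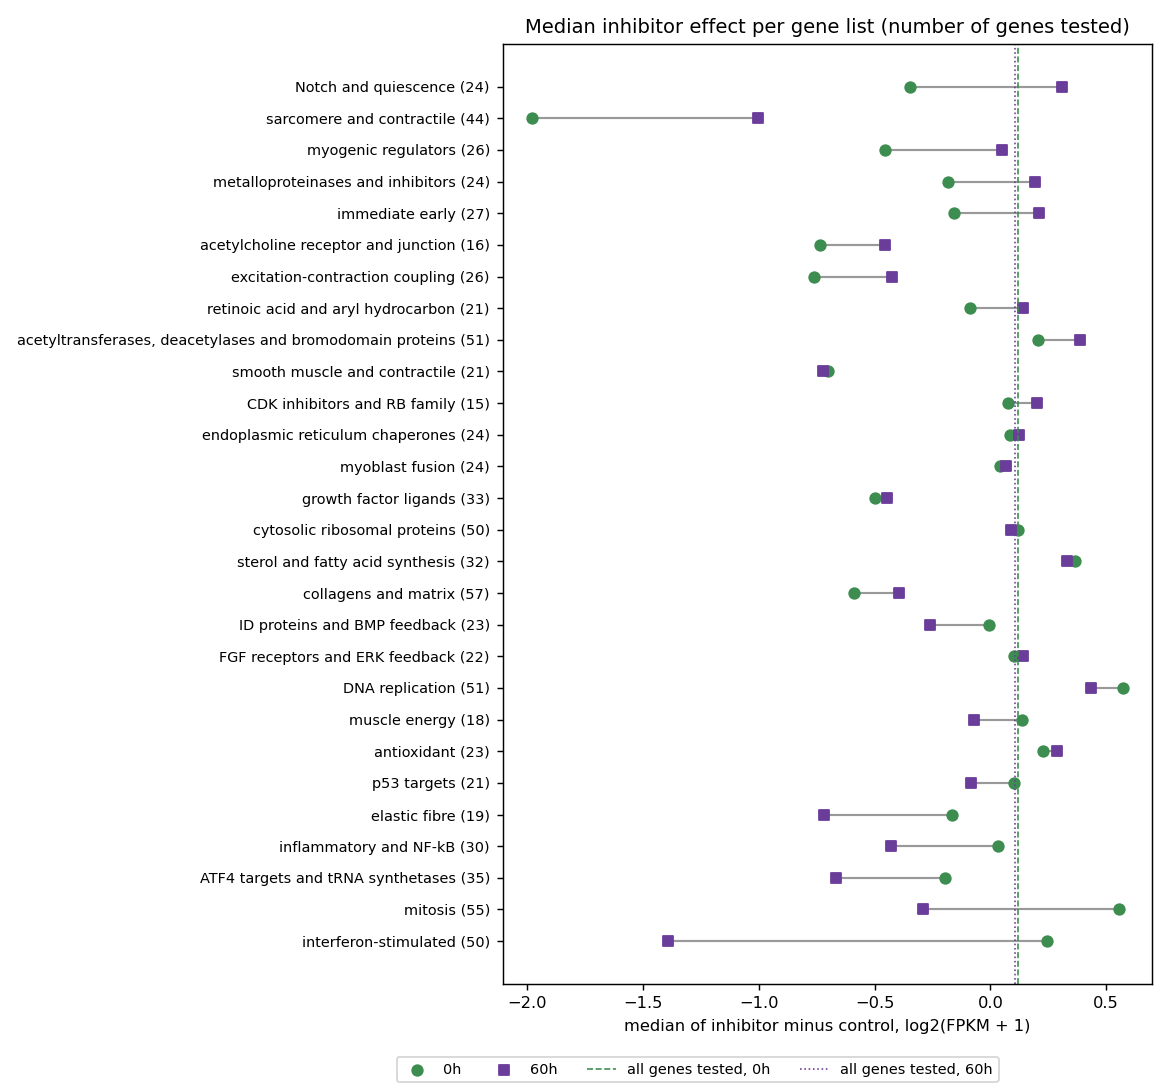
Median inhibitor effect of each of 28 gene lists at 0h (green circles) and 60h (purple squares) in log2(FPKM + 1) units, ordered by the median interaction, with the number of genes tested in parentheses. Dashed and dotted lines mark the medians over all genes, 0.12 and 0.105, and the interferon-stimulated genes show the longest fall, from 0.245 to -1.391.

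Other lists had members in both directions. Among 50 cytosolic ribosomal proteins 39 interactions were not called, with 3 shifted up and 8 down. Of 32 genes of sterol and fatty acid synthesis 7 shifted up, 8 down and 17 were not called, of 18 muscle energy genes 4, 6 and 8, of 24 endoplasmic reticulum chaperones 10, 7 and 7, and of 21 p53 targets 4, 10 and 7. Over all genes 50.9% of interactions were called.

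Effects that kept their direction could still differ in size by a factor of 2 or more. Of the 199 genes with a log2 interaction of at least 1 and the same called direction at both stages, 130 were lower at both and more so at 60h, 37 were lower at both and more so at 0h, and 32 were higher at both and more so at 60h. None was higher at both and more so at 0h.

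Positions, which the rules did not use, and gene lengths, which enter the rules through FPKM, were compared over the 6 sets as a description. Of 409 genes 347 had a position, and 14 pairs of neighbours had positions within 50000 bases of each other. Such pairs were not counted over all genes, so whether 14 is many was not tested. The pair SAPCD2 and ABCA2 carried the chromosome label Unknown, so its distance is not established. PPFIA4, MYOG and ADORA1 followed each other on chromosome 9 (113727857 to 113777772, 113783233 to 113785312 and 113835279 to 113875899), and all 3 were lower at 0h only, with effects of -1.37, -3.54 and -2.41 at 0h. TAP2, PSMB8 and TAP1, of antigen processing, lay side by side on chromosome 7 and were lower at 60h only. CCL11 and CCL2 on chromosome 12, 15247 bases apart, fell into different sets, as did CENPA and DPYSL5 on chromosome 3. Neighbours outside the naming rule were named after their values were seen. The median length recovered for a gene model was 3888 bases over all genes, 3139 and 3301 for the reversed sets, 3447 and 4525 for genes lower and higher at 60h only, and 4703 for genes lower at 0h only.

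NOTCH1, with effects of -0.501 and 0.834, lay just inside the reversal from lower to higher and DTX4, with -0.487 and 0.519, just outside. For the reverse order PPP2R2C (0.507 and -0.546) and SYK (0.55 and -0.497) bracketed the limit. SEMA3A (-1.001 at 60h) and JADE1 (-0.996) did so for genes lower at 60h only, CACNG7 (1.001) and ZSCAN23 (0.999) for genes higher at 60h only, and ARID5B (-1.01 at 0h) and NOTCH3 (-0.989) for genes lower at 0h only.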

How the data were processed

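RNA-seq of porcine muscle satellite cells was deposited as 1 table with 31908 genes and 12 columns, 3 libraries for each of 4 groups, with no column of other samples. The submitters' processing notes name Trimmomatic, featureCounts and the Sscrofa11.1 build. The values are FPKM as deposited by the authors, with aligner, annotation release, strand setting and versions not given in the sources used here. Columns named NC were matched to samples titled WT by stage and replicate number. Symbols stood in the deposited table for 16801 genes and were added from a reference for 687 more, and positions came from the reference table (Sscrofa11.1) by unique symbol for 9790 of the 11636 genes tested.

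The values were fitted as log2(FPKM + 1) with limma 3.58.1 in R 4.3.3, as 4 group means with a trended empirical Bayes prior over all 12 libraries. Tests were two-sided with Benjamini-Hochberg adjustment over 11636 genes, called at an adjusted p under 0.05. Changes on this scale understate those of low genes, folds are ratios of mean FPKM, and the interaction uses the libraries of both stage effects. Whole reads were recovered for 22521 of 22521 genes above 0 within 0.001 reads, with sums of 99.991% to 99.993% of the totals. They gave depth and 1 alternative, limma-voom, which called 2909 interactions upward and 3079 downward. The fitting script was tested on simulated data.

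Members, limits, 28 gene lists and 8 marker lists were chosen with earlier results of these data known, and no list was tested. The naming rule took the 5 largest interactions of each set of genes with a symbol and a mean FPKM of 5 or more in a group, up to 4 called members of each list described, and 11 fixed genes. Further genes are marked where named. Promoters and microRNA sequences were not analysed here. Alternatives were other pseudocounts, filters, scalings, priors, size limits, a replicate term and leaving out each library.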

Additional observations from a re-analysis of the deposited data

Results flagged for a closer look

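A difference of the inhibitor effect between the stages was tested directly, and the interaction was called by limma for 2823 genes in the upward and 3104 in the downward direction. Among the genes named, the following had called effects of opposite direction at 0h and 60h, each of at least 0.5, and a called interaction, given here on the log2(FPKM + 1) scale. From lower to higher they were MIR1-2 at 3.75, whose value is no bound since its inhibitor libraries of 0h held no read, CDKN1C at 3.51, MYH8 at 3.22, CCL11 at 2.78, FNDC5 at 2.57, MSTN at 2.55, FGFR4 at 2.46, DLL1 at 2.09, NR4A1 at 2.03, HES6 at 1.95, ID4 at 1.94, KLF2 at 1.64, MMP15 at 1.38 and PAX7 at 1.27. From higher to lower they were MX1 at -3.10, IFI6 at -3.07, ssc-mir-221 at -3.01, OAS2 at -2.75, IFI44 at -2.64, which left the set under 4 alternatives, FOSL1 at -2.13, CCNB1 at -1.76, KIF20A at -1.74 and CENPA at -1.70. The microRNA values rest on few reads. Groups of 3 libraries were not searched for single libraries that stand apart.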

How the results depend on the processing

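The interaction counts stayed within 1.5 times 2823 and 3104 under every alternative run, and of 2185 alternatives for 110 named genes 2174 kept direction and side of the threshold. With a pseudocount of 0.1, 85 genes reversed from lower to higher, 78 from higher to lower, and 5 were higher at 0h only. With limma-voom on recovered reads, added after seeing the data, these were 81, 85 and 5, and STRA6 (-0.40, adjusted p = 0.696) and EGR3 (2.00, adjusted p = 0.0757) lost their calls. Median-of-ratios scaling left 2957 genes higher at 0h. Limits of 1 for a reversal and 0.25 for the interval left 5, 3, 53, 19, 5 and 0 genes in the 6 sets, in the order of the report, by construction. EP300, at -0.00 and not called, turned to 0.03 (TPM), 0.00 (median of ratios) and 0.03 (quantile), and ran from -0.06 to 0.03 when single libraries were left out. The cause of the other changes was not tested.

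Leaving the stricter limits aside, 38 of 64 named genes in a set stayed in it under all other alternatives and 26 left it or were not tested under at least 1. MYOG, FBLN2 and FNDC5 left theirs after median-of-ratios scaling, and SRL was kept under 11 of 20. Genes lower at 60h only numbered 137 to 140 without a control library of 60h, since 30 of the 169 were then not tested. Limma-voom shared 110 of these 169 genes, 50 of the 95 higher at 60h only, 37 of the 46 lower at 0h only, and 47 of 52 and 43 of 44 reversals. A pseudocount of 0.1 shared 110, 55, 35, 50 and 44, and median-of-ratios scaling 132, 62, 31, 37 and 27.

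Replicate numbers did not pair the libraries: correlations of same-numbered residuals ran from -0.094 to 0.082, and 2 of 12 libraries correlated best with their own number. With the replicate block 2759 genes shifted up and 3037 down, 53 and 45 reversed, and 169, 93, 45 and 3 were confined to a stage. At low levels depth limits the statements, since a gene under 1 FPKM at a stage can hide a fold change there.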
